A study of Mus musculus with 24 samples.

Results

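The data compared here are the 12 KO and the 12 WT libraries of the series, pooled over untreated colon, 2 stages of colitis and colorectal tumours, with the condition as a blocking term. The libraries were chosen by their genotype and condition labels alone, and they are 24 of the 24 libraries in all. WT mice were wild type, and in KO mice Axin1 was deleted in intestinal epithelial cells only. All mice were of strain C57BL/6. Colon RNA came from untreated mice ("untreated", 3 WT and 3 KO), from mice given DSS and killed at day 7 (3 WT and 3 KO), and from mice given DSS and killed at day 13 (3 WT and 3 KO). DSS, dextran sulphate sodium, injures the colon epithelium and causes colitis. The last 6 libraries (3 WT and 3 KO) were of colorectal tumours from mice given AOM/DSS, in which azoxymethane, a carcinogen, is combined with DSS. The Cre driver, the deleted exons, the ages of the mice and whether 1 tumour or a pool made a library: none of these is stated in the sources used here. The series states 3 biological replicates a group. Whole tissue was used, so the deletion covers only the epithelial share of each library.

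AXIN1 is a scaffold protein. Together with APC, GSK3 and casein kinase 1 it forms the beta-catenin destruction complex. When a Wnt ligand binds its receptors, this complex is held inactive and beta-catenin enters the nucleus, where it works with TCF and LEF proteins at target genes. AXIN2, a close relative of AXIN1, is itself a target of the pathway and acts as feedback. In the colon, Wnt signals from the stroma maintain the stem cells at the crypt base, and most colorectal tumours carry mutations that keep beta-catenin active.

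The libraries held between 15.7 and 28.1 M expected counts, with 22675 to 24581 genes above 0. The 12 colon epithelium identity genes summed to between 5105 and 18130 CPM (counts scaled to 1e6 per library), and Cdh17, an adhesion protein of intestinal epithelium, ranged from 342 to 1130 CPM over the 24 libraries. Hoxb13, a homeobox gene of the distal colon on the same list, did not hold in each library: it was at 2.64 CPM in untreated KO replicate 3, beside 569 and 568 CPM in the other untreated KO libraries, and at 15.1 CPM in WT tumour replicate 1, beside 185 and 175 CPM. Several libraries stood apart. Untreated KO replicate 3 also reached 3016 CPM for 19 summed genes of the type I interferon response. The other untreated KO libraries held 776.5 and 396 CPM, and untreated WT at most 329 CPM. Day 7 WT replicate 2 reached 13690 CPM for 12 smooth muscle genes. Day 13 WT replicate 3 and day 13 KO replicate 1 reached 5474 and 1320 CPM for squamous epithelium genes, which mark stratified epithelium such as that of the anal canal. By Y-linked expression, day 13 held 3 high libraries among WT and 3 low ones among KO, so that at day 13 sex and genotype cannot be told apart. Over all conditions 7 WT and 6 KO libraries were high. Replicates were numbered in accession order, so that numbers pair no libraries.

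Across the 4 conditions, 4 genes differed between KO and WT in edgeR's quasi-likelihood test with Benjamini-Hochberg adjustment: Axin1, St8sia1 and Slco3a1 fell, and the pseudogene Gm44958 rose. These are 0.021% of the 19056 genes tested at an adjusted p under 0.05. Each of the 4 had the same sign in every condition and no overlap between KO and WT libraries within any condition. Genes called on these same libraries tend to share 1 sign through that choice. Their agreement, here and in the other counts of called genes with 1 sign in 4 conditions, is a description only. Over all genes tested, 16.4% had 1 sign in all 4 conditions, 1436 of them higher and 1684 lower, beside 12.5% for independent signs. The count of called genes differed between fits. A fit with a mean for each of the 8 groups, testing the average of the 4 differences, called 113 genes higher (0.593%) and 698 lower (3.66%), of which 481 had 1 sign in the 4 conditions. DESeq2 with condition and genotype called 215 higher and 884 lower. Within the blocked fit, 41 genes lay at adjusted p between 0.05 and 0.052, and 70 passed at 0.06. Leaving out 1 library gave 1 to 83 genes higher and 2 to 225 lower in the blocked fit, the largest counts without untreated KO replicate 3, and 36 to 310 higher and 326 to 1247 lower as the average of 4.

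Axin1 (chr17:26138688-26195811, + strand, GRCm38) was measured first, as the deleted gene. In untreated colon it stood at 51.4, 55.2 and 48.9 CPM in WT and at 18.6, 17.7 and 15.3 CPM in KO. At day 7 the values were 50.5, 49 and 52.2 CPM in WT and 15.6, 15.9 and 16.4 CPM in KO. At day 13 they were 58.8, 47.4 and 54.5 CPM in WT and 17.8, 15.2 and 13.5 CPM in KO. Every KO library was below every WT library, in tumours too, where WT held 49.8, 57.2 and 57.8 CPM and KO 17.5, 19.7 and 17.1 CPM. The log2 fold change over the 24 libraries was -1.66 ± 0.055 (SE), with adjusted p = 7.25e-15 by edgeR. The transcript that remained was 33.2% of the WT level in untreated colon, 31.6% at day 7, 29.0% at day 13 and 33.0% in tumours, and 31.7% over all libraries. On the scale of TPM, which allows for transcript length, it was 29.9%. The remaining share was thus alike in colon and tumours, and the difference between tumours and colon in log2 fold change was 0.08 ± 0.13 (SE). In whole tissue, fewer cells of a type and less RNA per cell cannot be told apart.

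St8sia1 (chr6:142821545-142964452, - strand) encodes the sialyltransferase that makes the ganglioside GD3. It was low in untreated colon, at 0.607, 0.593 and 1.82 CPM in WT against 0.404, 0.412 and 0.521 CPM in KO. At day 7 it stood at 2.91, 6.08 and 5.06 CPM in WT and at 1.49, 1.45 and 2.46 CPM in KO. Day 13 gave 2.38, 2.22 and 2.66 CPM in WT and 0.533, 0.772 and 0.782 CPM in KO. The WT level was thus higher in colitis than in untreated colon, and KO libraries stayed below WT libraries at both stages. In tumours WT held 2.89, 2.34 and 1.35 CPM, and KO held 1.01, 1.2 and 0.952 CPM, the nearest approach of the groups being 1.35 against 1.2. The log2 fold change was -1.34 ± 0.20 (SE; edgeR, adjusted p = 5.76e-03), and the differences by condition lay between -1.05 in tumours and -1.78 at day 13. The call was lost when day 7 (adjusted p = 0.161) or day 13 (0.231) was left out, and the fold change then was -1.32 and -1.22.

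Slco3a1 (chr7:74275419-74554780, - strand) encodes an organic anion transporter that carries prostaglandins, among others. In untreated colon it was at 9.62, 13.4 and 11.2 CPM in WT and at 7.08, 7.97 and 8.73 CPM in KO. At day 7, 1 WT library stood high, at 28.8 CPM beside 12.4 and 11.1, and KO held 6.93, 7.88 and 7.01 CPM. At day 13 WT held 15.7, 7.36 and 17 CPM, and KO 6.84, 5.27 and 5.79 CPM. Tumours gave 13.5, 17.3 and 16.7 CPM in WT and 10.1, 8.12 and 9.41 CPM in KO. The KO libraries varied little, between 5.27 and 10.1 CPM, whereas the WT libraries reached from 7.36 to 28.8 CPM. The log2 fold change was -0.93 ± 0.16 (SE; edgeR, adjusted p = 0.0312). This call was lost in 14 of 37 alternative analyses, 10 of which left out 1 library. The adjusted p by edgeR was 0.179 without day 7, 0.231 without day 13 and 0.057 with a term for Y-linked expression. Leaving out the 4 colon libraries with repeated sample numbers gave an adjusted p of 0.0638; these numbers, in the names of the deposited files, are 16 for untreated WT 2 and day 7 WT 2 and 15 for untreated KO 2 and day 7 KO 3. The 10 libraries left out singly were untreated WT 2 and KO 1, day 7 KO 1, 2 and 3, day 13 WT 1 and 3, and day 13 KO 1, 2 and 3, with adjusted p between 0.0530 and 0.0898.

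Gm44958 is a processed pseudogene (chr6:131291603-131292338, - strand) that lies inside the gene Magohb (chr6:131284388-131293244, - strand), which encodes a part of the exon junction complex. A stretch of 521 bases of its 736, from base 79 to base 599, is identical to a Magohb transcript, so reads of the pair can be shared between them and both values are uncertain. WT libraries held 0 to 3 counts of Gm44958 each and 10 in sum, and KO libraries 15 to 47 each and 352 in sum. Every KO library was above every WT library, between 0.639 and 2.28 CPM against at most 0.105 CPM. The ratio of summed counts, scaled to library size, was 33.5, with an exact 95% interval of 18 to 70.5 that covers counting error only. The adjusted p by edgeR was 1.09e-06. The host gene Magohb ranged from 7.2 to 15.3 CPM in WT and from 11 to 19.9 CPM in KO. Its log2 fold change was 0.40 ± 0.11 (SE; edgeR, adjusted p = 0.0919), and it overlapped in 2 of the 4 conditions.

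**Figure D1:**
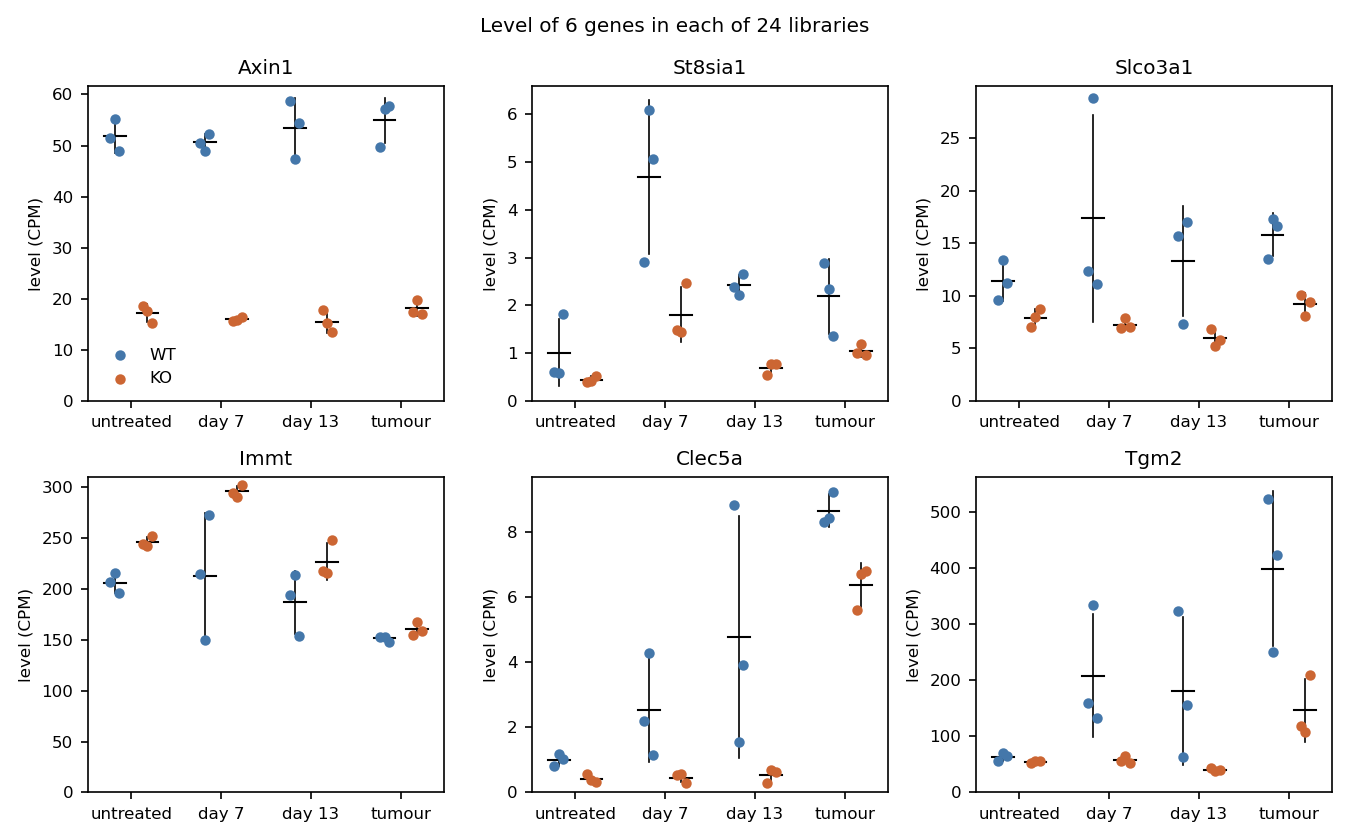
Levels of Axin1, St8sia1, Slco3a1, Immt, Clec5a and Tgm2 in CPM (vertical axes, linear, from 0) in each of 24 libraries, by condition and genotype; points are libraries, horizontal lines group means and vertical bars SD (n = 3). KO points lie below WT points in every condition for 5 genes and above them for Immt; in tumours Clec5a lies between 5.61 and 6.82 CPM in KO and between 8.31 and 9.24 CPM in WT.

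A count that uses no model of the spread gave 13 genes (0.0682% of those tested) whose KO and WT libraries did not overlap in any of the 4 conditions. For each of the 13, exact permutation of the genotype labels within conditions gave a two-sided p of 1.25e-05, the smallest that the 160000 assignments allow; since the genes were picked for not overlapping, this p adds no evidence. Of these, 3 were higher in KO (Gm44958, BC064078 and Immt) and 10 were lower (Axin1, St8sia1, Slco3a1, Clec5a, Tgm2, Ifi207, Ccr1, Vcam1, Serping1 and Pik3r6). Of the 13, 9 did not pass the blocked test, with adjusted p between 0.0513 and 0.0919.

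Immt encodes mitofilin, which shapes the cristae of mitochondria. It was at 207, 216 and 196 CPM in untreated WT and at 244, 242 and 252 CPM in untreated KO. In tumours the groups came close, with 153, 153 and 148 CPM in WT and 155, 168 and 159 CPM in KO. The log2 difference was small in every condition, 0.27 ± 0.077 (SE; edgeR, adjusted p = 0.0919), and 0.09 in tumours. BC064078 is an unprocessed pseudogene (chr6:128992952-129008040) at 0.125 to 0.831 CPM in 9 of the 12 WT libraries. The other WT libraries, replicate 3 at day 7, day 13 and in tumours, held 8.72, 16.4 and 1.98 CPM. KO libraries held between 5.26 and 29.9 CPM. These 3 WT libraries stood above the other 9, and the adjusted p of the difference was 0.0513 (edgeR; log2 difference 2.85 ± 0.60).

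Of the 10 lower genes, several are best known from immune, endothelial or stromal cells. Clec5a, a receptor of myeloid cells, stood at 0.823, 1.19 and 1.02 CPM in untreated WT and at 0.566, 0.374 and 0.32 CPM in untreated KO. At day 13 WT held 8.84, 1.55 and 3.91 CPM and KO 0.291, 0.681 and 0.626 CPM. In tumours the levels were near each other, 8.31, 8.45 and 9.24 CPM in WT and 5.61, 6.73 and 6.82 CPM in KO. Its log2 differences were -1.26, -2.45, -3.14 and -0.44 in untreated colon, day 7, day 13 and tumours, and -1.77 ± 0.35 in the blocked fit (edgeR, adjusted p = 0.0513). Tgm2, a transglutaminase that cross-links proteins, kept a wide gap in tumours, with 522, 250 and 423 CPM in WT and 119, 108 and 210 CPM in KO. In untreated colon the gap was narrow, at 56.5, 70.2 and 64.5 CPM in WT and 52.3, 55.1 and 55.2 CPM in KO. The log2 difference of Tgm2 was -1.43 ± 0.26 (edgeR, adjusted p = 0.0513).

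Ccr1, a chemokine receptor of myeloid cells, ranged from 3.24 to 20.2 CPM in WT and from 1.02 to 16.9 CPM in KO (log2 difference -1.22 ± 0.28, edgeR adjusted p = 0.0604). Vcam1, an adhesion molecule of activated endothelium, ranged from 8.97 to 43.2 CPM in WT and from 2.91 to 17.2 CPM in KO (-1.195 ± 0.28, 0.0614). Serping1, the inhibitor of complement C1, ranged from 39.8 to 194 CPM in WT and from 25.9 to 70.7 CPM in KO (-1.05 ± 0.22, 0.0513). These ranges overlap because the conditions differ in level, while within each condition they did not. Ifi207, an interferon-induced gene, had a log2 difference of -1.31 ± 0.29 (0.0599), and Pik3r6, a regulatory subunit of PI3-kinase gamma, one of -0.95 ± 0.23 (0.0705). In each of these 5 genes the difference was larger at day 7 and day 13 than in untreated colon or tumours.

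**Figure D2:**
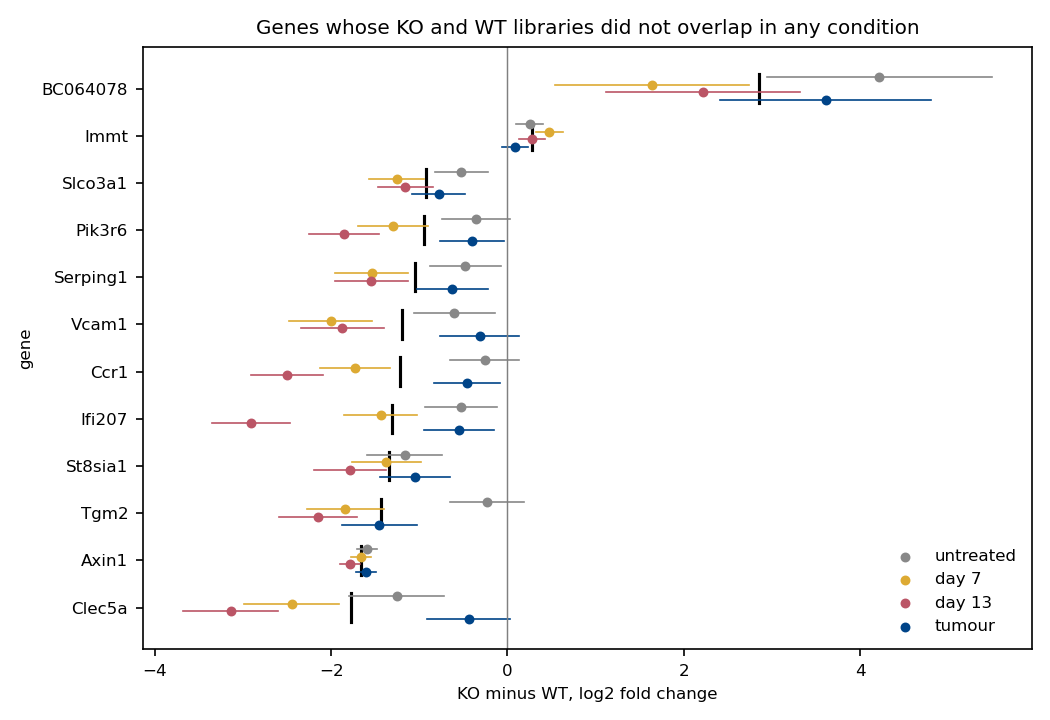
KO minus WT log2 fold change by condition for 12 of the 13 genes without overlap, Gm44958 left out because its WT counts were near 0; dots are the 4 conditions from the fit of 8 groups, bars SE, and the black line the blocked fit over 24 libraries. Axin1 lies between -1.59 and -1.79 in the 4 conditions, whereas Clec5a runs from -3.14 at day 13 to -0.44 in tumours.

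Positions on the genome were uneven. Chromosome 6 held 5 of the 13 genes without overlap (Gm44958, BC064078, Immt, Clec5a and St8sia1) and 2 of the 4 called genes, beside 5.59% of the genes tested. Over the whole chromosome, 215 of 1065 genes (20.2%) had an unadjusted p under 0.05 by edgeR, near the share of all genes (18.6%). In the stretch from 125 to 135 Mb, chosen after the positions were seen, 34 of 103 genes (33.0%) had an unadjusted p under 0.05, against 18.6% of all genes. This stretch holds Gm44958 and BC064078, and the part of the mice's strain background, beyond the label, was not tested. Around Axin1 no such excess was seen: of the 252 other genes tested within 5 Mb, 37 (14.7%) had an unadjusted p under 0.05 and 0 were called by edgeR.

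The first 250 bases upstream of the start site were read from RefSeq (GRCm38.p6) and searched on both strands for CTTTGAT, the core of the site that TCF and LEF proteins bind. RefSeq's table held such a window for 1 of the 4 called genes (St8sia1), for 5 of the 13 genes without overlap and for 18 of 28 Wnt target genes. None of the 5 held the motif. Counted by gene, it was present for 2 of the 18 Wnt target genes (11.1%), Sp5 and Tnfrsf19, and for 2.95% of the tested genes with a window. Counted by window, 3.21% of all 32851 held it. Printed here are St8sia1, as the called gene with a window, and Sp5, a transcription factor and Wnt target, as the example with the motif; capitals mark CTTTGAT or its reverse complement, and each run reads 5′ to 3′ on the gene's strand. The St8sia1 window is chr6:142964453-142964702 (- strand) and the Sp5 window chr2:70474673-70474922 (+ strand).
St8sia1: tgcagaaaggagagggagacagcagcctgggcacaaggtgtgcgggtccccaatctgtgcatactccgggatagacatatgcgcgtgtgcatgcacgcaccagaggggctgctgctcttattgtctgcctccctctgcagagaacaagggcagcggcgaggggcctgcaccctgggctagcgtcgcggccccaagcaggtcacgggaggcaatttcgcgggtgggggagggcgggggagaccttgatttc
Sp5: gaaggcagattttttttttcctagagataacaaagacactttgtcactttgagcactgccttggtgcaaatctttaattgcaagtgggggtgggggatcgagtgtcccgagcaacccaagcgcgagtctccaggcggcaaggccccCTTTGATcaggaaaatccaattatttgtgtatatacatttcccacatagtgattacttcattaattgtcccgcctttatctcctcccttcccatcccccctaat

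The first base of the motif lies 104 bases before the start of Sp5. A match or its lack describes these letters only.

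Of the Wnt pathway genes, Axin1 alone was called over the 24 libraries, while Axin2 and Rnf43 were called higher in KO in the 18 colon libraries alone. Of 17 destruction complex genes tested, 3 were higher and 2 lower at unadjusted p under 0.05, and Axin1 alone was called; their median log2 difference was 0.05, beside 0.004 for all genes. The background of this looser count was 6.15% of genes higher and 12.4% lower. Axin2 stood at 24.6, 25.1 and 30 CPM in untreated WT and at 27.6, 33.5 and 34.1 CPM in untreated KO. At day 7 it was at 17.6, 16.4 and 21 CPM in WT against 37, 33.3 and 40.3 CPM in KO, and at day 13 at 18.3, 20.4 and 12.5 CPM against 32.1, 24.8 and 23.2 CPM. The colitis groups thus did not overlap. In tumours they did, at 176, 398 and 410 CPM in WT and 423, 353 and 417 CPM in KO. The log2 difference of Axin2 was 0.54 ± 0.13 (SE; edgeR, adjusted p = 0.0708) in the blocked fit and passed as the average of the 4 conditions (adjusted p = 0.0176) and in colon alone (0.64 ± 0.13, adjusted p = 0.0296).

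Csnk1a1 and Gsk3b, kinases of the complex, had log2 differences of 0.17 ± 0.054 and 0.14 ± 0.053 (edgeR, adjusted p = 0.112 and 0.157). Apc and Ctnnb1, which encodes beta-catenin, were at 0.09 and -0.01. Of 28 Wnt target and feedback genes tested, 2 were higher and 4 lower at unadjusted p under 0.05, and their median was -0.20. That median lay between -0.26 and -0.04 when 1 library was left out (the latter without day 13 WT replicate 3) and at 0.03 with limma and voom, so its sign was not stable. Rnf43, a ubiquitin ligase that removes Wnt receptors, ranged from 28 to 253 CPM in WT and from 44.6 to 271 CPM in KO. Its log2 difference was 0.51 ± 0.14 (edgeR, adjusted p = 0.0842) in the blocked fit, 1.12 at day 13 and 0.18 in tumours. In the 18 colon libraries alone Rnf43 was called higher (0.63 ± 0.15, edgeR adjusted p = 0.0422). The other target genes varied in sign between conditions. Lgr5, the crypt stem cell receptor for R-spondins, had a log2 difference of 0.26 (adjusted p = 0.681), -0.42 in untreated colon and 0.95 at day 7. Its levels in tumours were 84.4, 116 and 66 CPM in WT and 79.4, 98.3 and 87.3 CPM in KO, and the groups overlapped.

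Feedback inhibitors gave no common direction: Znrf3 had a log2 difference of 0.08, Nkd1 one of -0.34 and Notum one of -0.20. The target transcription factors Sp5, Ascl2 and Myc stood at -0.35, 0.14 and -0.10. Ccnd1, a cyclin of the G1 phase, was at -0.31 (edgeR, adjusted p = 0.228), and the proliferation marker Mki67 was at 0.12 with differences from -1.06 in untreated colon to 1.201 at day 7. None of these genes passed the test, and the adjusted p of those other than Ccnd1 was 0.554 or more. Cell cycle genes as a list had 2 of 21 higher at unadjusted p under 0.05 (median 0.05), and ribosome biogenesis genes 0 of 18 in either direction (median 0.06), with 0 called by edgeR in the blocked fit or as the average of 4.

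**Figure D3:**
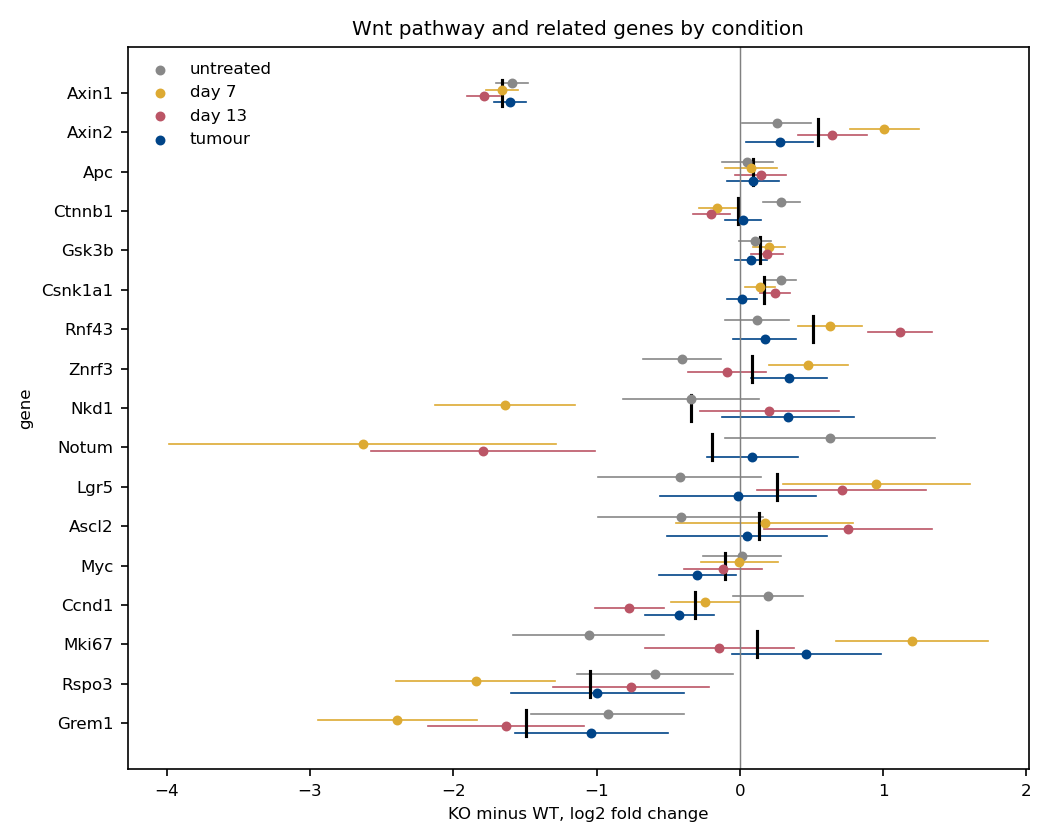
KO minus WT log2 fold change by condition for Axin1 and 16 genes of the Wnt pathway, its ligands and proliferation; dots are conditions from the fit of 8 groups, bars SE and black lines the blocked fit. Axin1 stands near -1.66 in all 4 conditions, Axin2 between 0.26 and 1.01, and the dots of Mki67 and Notum lie on both sides of 0.

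Stromal cells sustain or restrain Wnt signalling through secreted proteins. Of 15 tested ligands, R-spondins and secreted antagonists, 8 were lower at unadjusted p under 0.05 and 0 higher, and 2 passed as the average of 4. The list's median was -0.65 in the blocked fit, -0.70 in untreated colon, -1.39 at day 7, -0.96 at day 13 and -0.01 in tumours. The blocked median was -0.48 without day 13 WT replicate 3. At day 13 the summed level was 52.4, 48.75 and 181.2 CPM in WT and 48.39, 58.24 and 53.82 CPM in KO, with overlap. At day 7 it was 79.52, 211.4 and 72.1 CPM in WT and 39.06, 58.72 and 48.62 CPM in KO, without overlap. In medians by condition, here and for the lists that follow, a gene at 0 in a whole group was set at its bound of 3 counts over the group. Rspo3, an R-spondin that amplifies Wnt signals, ranged from 0.629 to 37 CPM in WT and from 0.457 to 6.01 CPM in KO (log2 difference -1.05 ± 0.28, edgeR adjusted p = 0.0857). Grem1, a BMP antagonist of crypt fibroblasts, stood at 40.4, 57.9 and 47.3 CPM in untreated WT and at 22.5, 29.8 and 24.5 CPM in untreated KO. At day 7 WT Grem1 reached 177, 630 and 85.8 CPM and KO 78.3, 52.2 and 39.9 CPM. In tumours it was at 114, 52.5 and 89.3 CPM in WT and 64.5, 34.5 and 25.7 CPM in KO. Grem1 thus overlapped in tumours alone, and its log2 difference was -1.49 ± 0.29 (edgeR, adjusted p = 0.0513). Apcdd1, a Wnt inhibitor, was at -1.15 (adjusted p = 0.220), -2.60 at day 13 and 0.68 in tumours. At day 13 Apcdd1 stood at 3.95, 1.71 and 24.3 CPM in WT and at 2.81, 0.818 and 1.33 CPM in KO, with overlap. Without day 13 WT replicate 3 its blocked log2 difference was -0.65.

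Several lists of stromal markers were lower as well. All 15 fibroblast and matrix genes tested were lower at unadjusted p under 0.05, with median -0.70 in the blocked fit, -0.60 in untreated colon, -1.28 at day 7, -1.19 at day 13 and 0.16 in tumours. Their summed level ranged from 1791 to 2847 CPM in untreated WT and from 1322 to 1684 CPM in untreated KO, and from 2251 to 7369 against 1364 to 1960 CPM at day 7. At day 13 it was 1796 to 4252 against 946.6 to 1335 CPM, and in tumours 2597 to 3740 against 2662 to 3812 CPM. The 3 colon groups thus did not overlap and the tumour groups did. Sparc, a matrix protein, had a log2 difference of -0.80 ± 0.17 (edgeR, adjusted p = 0.0513), and Dcn, the proteoglycan decorin, one of -1.02 ± 0.25 (0.0766). Endothelial genes were lower at unadjusted p under 0.05 in 13 of 14 (median -0.67) and enteric neuron and glia genes in 7 of 13 (median -0.67). In tumours their medians were -0.13 and -0.02, and the enteric median was also -0.02 at day 13. Smooth muscle genes gave 0 of 12 in either direction (median -0.14), and their median changed sign between conditions. It was -0.74 in untreated colon, -0.84 at day 7, 0.59 at day 13 and 0.30 in tumours. The part of stromal content in the lower genes was not tested.

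Most lists of immune genes showed their widest median differences in colitis, but the type I interferon list did not. All 18 monocyte and macrophage genes tested were lower at unadjusted p under 0.05, and 15 passed as the average of 4 (edgeR). Their median was -0.86 in the blocked fit, -0.11 in untreated colon, -1.24 at day 7, -1.91 at day 13 and -0.12 in tumours. Their summed level was 252.6 to 276.9 CPM in untreated WT and 163.9 to 281.6 CPM in untreated KO. At day 7 it was 400.0 to 599.2 against 191.1 to 280.4 CPM, at day 13 291.6 to 613.5 against 128 to 201.5 CPM, and in tumours 634.1 to 1058 against 532.2 to 901.6 CPM. The groups were apart in colitis and overlapped in untreated colon and tumours. Csf1r, the receptor for the macrophage growth factor CSF1, ranged from 15.3 to 78.2 CPM in WT and from 5.48 to 67.6 CPM in KO (log2 difference -0.90 ± 0.22, edgeR adjusted p = 0.0766).

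Neutrophil genes were lower at unadjusted p under 0.05 in 11 of 13 (median -2.52), and cytokine and chemokine genes in 19 of 22 (median -2.23). S100a8, a calcium-binding protein of neutrophils, was at or under 0.0801 CPM in every untreated library. At day 7 it was at 14.3, 40.9 and 4.96 CPM in WT and at 0.529, 0.0852 and 0.387 CPM in KO. In tumours WT held 50.7, 84.4 and 86 CPM and KO 58.7, 30.3 and 54.8 CPM, so the groups overlapped there. Its log2 difference was -3.82 ± 0.87 (edgeR, adjusted p = 0.0601). Il6, an inflammatory cytokine, had one of -2.55 ± 0.58 (0.0599) and Ccl7, a chemokine for monocytes, one of -1.84 ± 0.38 (0.0513). Neutrophil medians were 0.10, -4.09, -5.45 and -0.35 in untreated colon, day 7, day 13 and tumours.

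T cell and cytotoxic genes were lower in 8 of 17 at unadjusted p under 0.05 (median -0.78) and B and plasma cell genes in 8 of 15 (median -1.12). Interferon-gamma and MHC class II genes were lower in 9 of 20 (median -0.83). Mast cell genes were lower in 1 of 11 (median -0.56), with medians of -0.85 at day 7, -0.82 at day 13 and 0.54 in tumours. The interferon-gamma list had a median of 1.23 in untreated colon and of -1.76, -1.36 and -1.26 in the other conditions, and the T cell list one of 1.11 in untreated colon and below 0 in the others. The B and plasma cell median was below 0 in each condition. Type I interferon genes gave 0 of 19 in either direction, and their median ran from 2.55 in untreated colon to -1.49 in tumours. In untreated colon their summed level was 294.7, 317.6 and 329.2 CPM in WT and 776.5, 396 and 3016 CPM in KO. Every untreated KO library was thus above every untreated WT library, and replicate 3 was by far the highest. In tumours the summed level was 1630, 413.7 and 2141 CPM in WT and 480, 613.6 and 547.2 CPM in KO, so 2 WT libraries were above and 1 below the KO libraries. Without untreated KO replicate 3 the blocked fit called 83 genes higher and 225 lower, 278 of them with 1 sign in 4 conditions. Without the 4 libraries that stood apart it called 6 higher and 8 lower.

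Other genes also had an adjusted p of 0.0513 by edgeR, among them those described next, chosen with their values known. Hp, the acute phase protein haptoglobin, had a log2 difference of -3.38 ± 0.66. It was at or under 0.356 CPM in every untreated library and at 84.4, 93.9 and 144 CPM in WT tumours against 42.3, 44.7 and 33.7 CPM in KO tumours. Hp thus did not overlap in tumours, at day 7 or at day 13. Dio2, a deiodinase that activates thyroid hormone, was at -2.97 ± 0.59, and Lgals1, the lectin galectin-1, at -0.60 ± 0.11. The sulphatase Sulf1 stood at -1.31 ± 0.26, the adhesion protein Nfasc at -1.14 ± 0.22, the endocytic adaptor Dab2 at -0.90 ± 0.18, the tachykinin precursor Tac1 at -1.23 ± 0.26 and Tead4, a partner of YAP, at -1.15 ± 0.24. Cp, the copper-carrying ferroxidase ceruloplasmin, was at -1.57 ± 0.35 (adjusted p = 0.0599). All 9 were lower in each of the 4 conditions.

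Fewer genes were higher in KO, and fatty acid oxidation, oxidative phosphorylation and metal transport were the lists with the most such genes at unadjusted p under 0.05. Of 16 metal transport genes tested, 5 were higher at unadjusted p under 0.05 and 0 lower, and 3 passed as the average of 4; the list's median was 0.06. Slc11a2, the intestinal iron importer DMT1, stood at 56.4, 53.7 and 45.8 CPM in untreated WT and at 131, 164 and 107 CPM in untreated KO. At day 13 it was at 52.9, 61.2 and 50.1 CPM in WT and at 318, 117 and 224 CPM in KO. In tumours the groups overlapped, at 44.2, 82.9 and 77.5 CPM in WT and 71.6, 97.8 and 77.5 CPM in KO. Its log2 difference was 1.23 ± 0.23 (edgeR, adjusted p = 0.0513). Slc30a10, a manganese exporter, was at 2.44 ± 0.50 (0.0513), and S100g, the calcium-binding protein calbindin-D9k, at 2.64 ± 0.60 (0.0601). S100g in tumours was at 0.273, 0.839 and 1.2 CPM in WT and 8.04, 2.09 and 2.06 CPM in KO, without overlap. Adck5, a mitochondrial kinase-like gene, was at 0.34 ± 0.068 (0.0513).

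Fatty acid oxidation and ketogenesis genes were higher at unadjusted p under 0.05 in 10 of 18 (median 0.24) and oxidative phosphorylation genes in 7 of 18 (median 0.18), with 0 lower in both. edgeR called 0 of these 36 genes in the blocked fit and 0 as the average of 4. Both lists were higher in colon and near 0 in tumours, where their medians were -0.09 and -0.04. Without untreated KO replicate 3 the blocked median of the fatty acid list was 0.16. Its summed level was 4958 CPM in that library, 2431 and 2494 CPM in the other untreated KO libraries and 2161 to 2429 CPM in untreated WT. Oxidative phosphorylation genes summed to 6709, 6481 and 8144 CPM in untreated KO and 5700 to 6152 CPM in untreated WT. Acadvl, which starts the oxidation of long-chain fatty acids, had a log2 difference of 0.26 ± 0.095, Ehhadh, a peroxisomal enzyme, one of 0.42 ± 0.15, and Ndufs1, a subunit of complex I, one of 0.23 ± 0.078 (adjusted p = 0.150, 0.144 and 0.132). Detoxification enzymes had a median of 0.33 with 2 of 17 higher, and one of 0.09 without untreated KO replicate 3. Their summed level in that library was 7777 CPM, beside 2214 and 2209 CPM in the other untreated KO libraries. Of the epithelial class markers, absorptive genes gave 1 of 20 lower and goblet genes 2 of 15 lower at unadjusted p under 0.05. The absorptive median was -0.17 in the blocked fit, 0.33 at day 13 and -0.71 in tumours. The goblet median was -0.39 in the blocked fit, 0.02 in untreated colon and -0.80 in tumours. The 12 colon identity genes gave 0 in either direction (median 0.06). Enteroendocrine (median -0.41) and antimicrobial genes (median -1.22) are described under Other observations.

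**Figure D4:**
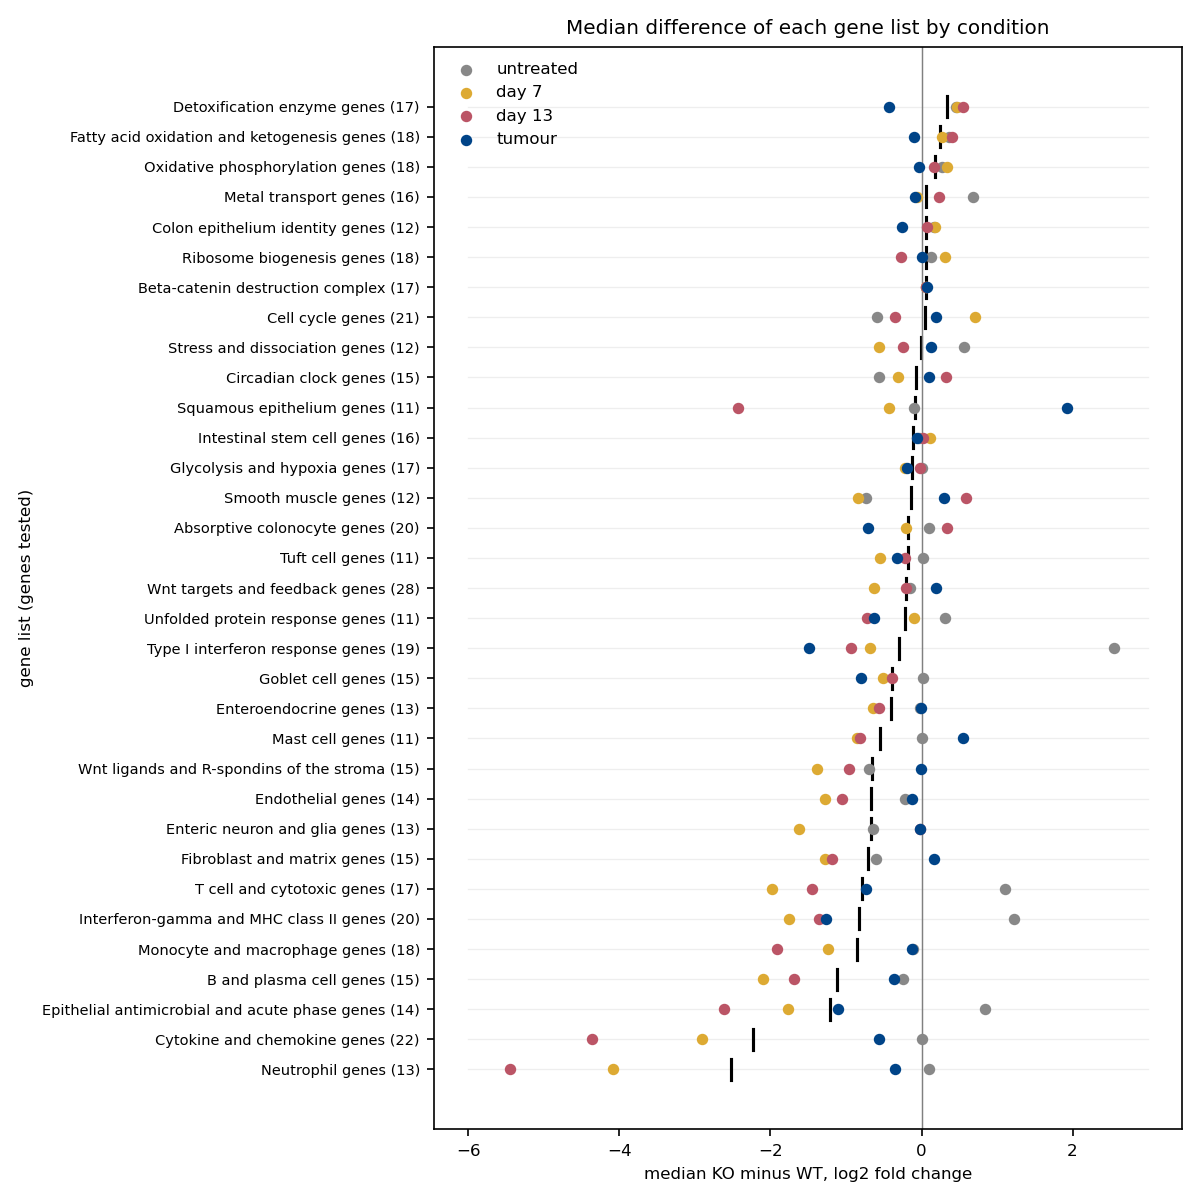
Median KO minus WT log2 fold change of 33 gene lists with at least 10 genes tested, by condition (dots) and in the blocked fit (black line); in the dots, genes at 0 in a whole group were set at the bound of 3 counts over the group, and no error bar is drawn. The neutrophil and cytokine lists reach -5.45 and -4.36 at day 13 and lie at -0.35 and -0.56 in tumours, whereas the destruction complex list lies between 0.05 and 0.08 in all conditions.

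To ask whether the colon effect was met again in tumours, genes were called in the 18 colon libraries alone and then measured in the 6 tumour libraries, which took no part in the choice. Colon gave 270 called genes (1.49% of 18102), 49 higher and 221 lower in KO. That number moved between 5 without day 7 KO replicate 1 and 940 without day 13 WT replicate 2 when 1 library was left out. Of the 270, 255 could be tested in tumours, and 170 (66.7%) had the same sign there. The share was 148 of 212 for genes lower in colon and 22 of 43 for those higher. Over the 16538 genes tested in both, 51.1% had the same sign, and 52% were lower in KO tumours. The size was smaller in tumours for 251 of the 255 genes, with a median absolute log2 difference of 1.19 in colon and 0.20 in tumours. The genes were chosen for passing in colon, which favours large sizes there, so these sizes are a description and show no difference between tissues. edgeR called 0 of the 255 in tumours at adjusted p under 0.05, and 0 of all 17245 genes tested there, of which 654 (3.79%) had an unadjusted p under 0.05. DESeq2 called 18 genes in tumours, 72.2% of them with the same sign in colon. Axin1 itself had an adjusted p of 0.0866 in tumours alone, with a log2 difference of -1.60 ± 0.11.

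Of the 255 genes, 18 had the same sign and an unadjusted p under 0.05 in tumours. Gm44958 was the one higher gene. The 17 lower were Axin1, St8sia1, Slco3a1, Tgm2, Clec5a, Ccr1, Ifi207, Ifi206, Hp, Dio2, Tead4, C1s1, Dram1, Entpd1, Gml, Il2ra and Ms4a4c. Tgm2 was at -1.41 ± 0.31 in colon and -1.46 ± 0.37 in tumours, Slco3a1 at -0.97 ± 0.20 and -0.78 ± 0.16, and Ifi206, an interferon-induced gene, at -1.74 ± 0.38 and -1.93 ± 0.59. These were picked from genes with a small p in both tissues, and as a description only, the difference in them had about the same size in both. In Hp it was -4.32 ± 0.83 in colon and -1.42 ± 0.24 in tumours, and in Il2ra, the interleukin-2 receptor alpha chain, -1.81 ± 0.41 and -0.88 ± 0.31. Entpd1, the ectonucleotidase CD39, was at -1.35 ± 0.31 and -0.30 ± 0.12.

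**Figure D5:**
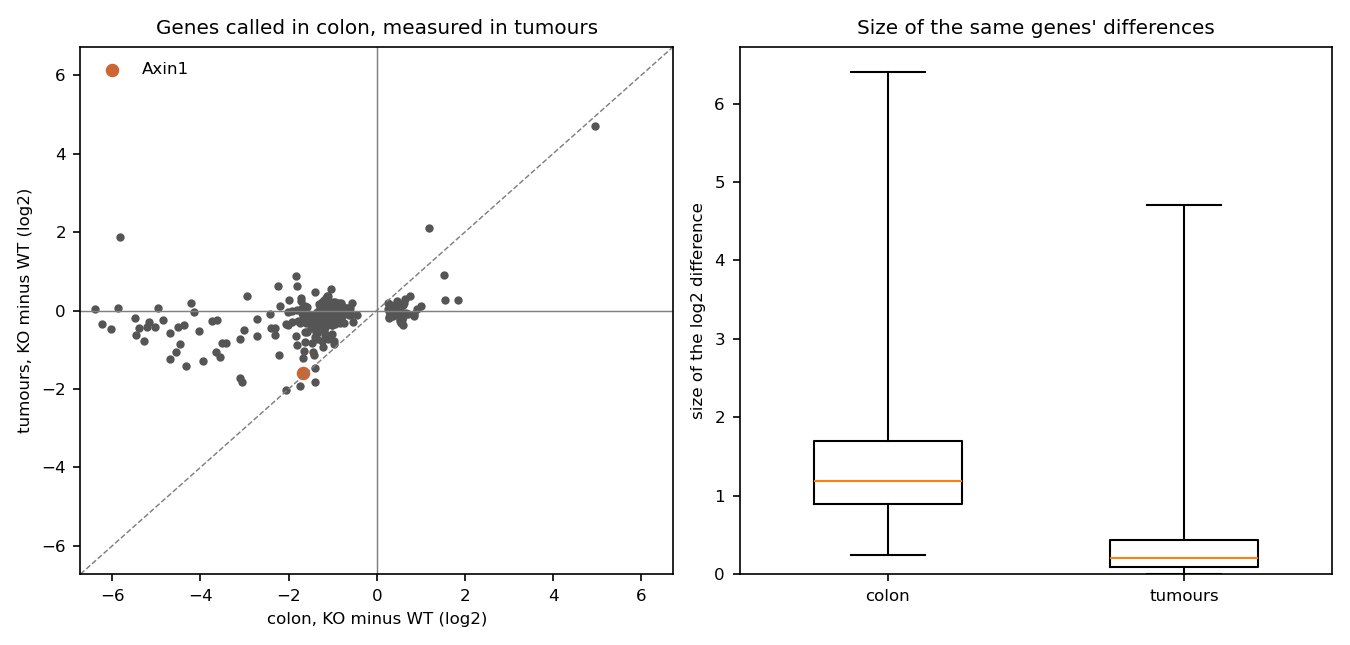
Left, KO minus WT log2 difference in colon (horizontal) and in tumours (vertical) for the 255 genes called in colon and tested in tumours, with equality dashed and Axin1 in orange; right, the absolute sizes of the same differences as boxes of median and quartiles with whiskers to the lowest and highest value. The median size is 1.19 in colon and 0.20 in tumours, and Axin1 lies near the dashed line.

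The genotype difference itself was tested for change between conditions. Over the 4 conditions, edgeR's test of the 3 interaction terms called 2 genes (0.0105% of those tested), Gzmb and Tyrobp, and 2902 genes had an unadjusted p under 0.05. Between tumours and the mean of the 3 colon conditions it called 0 genes, with 1761 at an unadjusted p under 0.05 and the smallest adjusted p at 0.412; DESeq2 called 22. Tested 1 condition at a time in the fit of 8 groups, 2 genes were called in untreated colon (0.0105%), 850 at day 7 (4.46%), 632 at day 13 (3.32%) and 1 in tumours (0.00525%). The gene called in tumours was Axin1. Those called in untreated colon were Axin1 and Kyat1, a kynurenine aminotransferase. Kyat1 stood there at 108, 79.5 and 142 CPM in WT and at 43.6, 33.1 and 17.8 CPM in KO, a log2 difference of -1.80 ± 0.28 (adjusted p = 0.0329), and its adjusted p in the blocked fit was 0.437. Kyat1 is named because of that count, after its value was seen.

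The conditions weighed unequally in the blocked fit. Leaving out untreated colon, the blocked fit over the other 3 conditions called 118 genes higher and 475 lower. Leaving out day 7 or day 13 left 1 lower gene, Axin1, in each fit. Without tumours it called 49 higher and 221 lower.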

How the data were processed

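RNA was measured by RNA-seq of whole colon and tumour tissue in 24 libraries. The authors deposited RSEM tables with expected counts and TPM per gene, per the file headers. STAR 2.7.6a, RSEM 1.3.1 and GRCm38 are credited here to the submitters' processing notes. No annotation release or strand setting is stated in the sources used here. Of 55487 gene identifiers, 55141 matched a symbol and a GRCm38 position in GENCODE M21.

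The deposited expected counts were rounded to whole numbers, scaled by TMM and tested with edgeR 4.0.16 (R 4.3.3; quasi-likelihood F test, robust) after a filter of at least 10 counts by group size and 15 in total. The model held condition as the block and genotype, with 19 residual degrees of freedom; interaction and per-condition tests used 8 group means, with 16. P-values were adjusted by Benjamini-Hochberg over all genes tested, with a threshold of 0.05. CPM levels are TMM-scaled. The TPM values deposited by the authors served for 1 check of Axin1. Genotype labels were also permuted within conditions (exact, two-sided, log2 CPM with a prior count of 2). Counts agreed fully in 0 of 276 pairs of libraries.

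The genes named are Axin1, 14 Wnt pathway genes, called genes and genes without overlap in the 4 conditions, the 5 smallest p of each interaction test, up to 4 genes of each list described, and all calls of a test with fewer than 5. The members and the 38 gene lists were chosen with earlier results of these data known. Genes just short of the threshold, Grem1, Magohb, Kyat1 and the genes singled out in the colon and tumour check fall outside that rule and were chosen with their values known. The alternatives tried were DESeq2 1.42.0, limma 3.58.1 with voom, RLE factors, no filter, 1 CPM in 12 libraries, the average of 4 differences, a Y-linked term, and leaving out conditions or libraries. A threshold of 0.06 and the chromosome 6 stretch were added after the data were seen.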

Additional observations from a re-analysis of the deposited data

Results flagged for a closer look

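Of the genes tested, 2 had a genotype difference that changed between the 4 conditions by edgeR's interaction test with Benjamini-Hochberg adjustment. Gzmb, which encodes the cytotoxic granule protease granzyme B, had an adjusted p of 0.0381 for this change. In untreated colon it was at 0.0433, 0 and 0.0889 CPM in WT and at 1.05, 0.299 and 2.92 CPM in KO, so the KO libraries were the higher ones. At day 7 the order was the other way, at 1.75, 1.85 and 2.09 CPM in WT and 0.192, 0.255 and 0.435 CPM in KO. Day 13 gave 6.82, 0.878 and 3 CPM in WT and 0.194, 0.182 and 0.235 CPM in KO. In tumours the groups overlapped, at 3.36, 3.21 and 3.33 CPM in WT and 1.96, 3.94 and 2.29 CPM in KO. The call held in 9 of the 24 fits that left out 1 library and was lost in 15, with adjusted p from 0.00177 to 0.124.

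Tyrobp, the adaptor of activating receptors on myeloid cells, also had an adjusted p of 0.0381. In untreated colon it stood at 5.2, 5.34 and 5.11 CPM in WT and at 5.38, 5.87 and 4.57 CPM in KO, with overlap. At day 7 WT held 9.86, 15 and 8.25 CPM and KO 2.4, 3.62 and 3.24 CPM, and at day 13 17.6, 8.15 and 18.8 CPM against 1.89, 2.73 and 3.01 CPM. Tumours gave 20.4, 27.3 and 23.3 CPM in WT and 21, 17.7 and 22.7 CPM in KO, again with overlap. The call held in 7 of the 24 fits that left out 1 library and was lost in 17, with adjusted p from 0.00177 to 0.150. The fits that kept both calls were those without untreated KO 3, day 7 WT 2, day 7 WT 3, day 7 KO 1, day 13 WT 2, day 13 KO 3 or tumour WT 2. Gzmb alone also passed without untreated KO 2 and without tumour KO 1.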

How the results depend on the processing

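Axin1 kept its direction and passed the threshold in all 37 alternatives, and Gm44958 in the 36 that tested it. The number of lists with a median below 0 stayed near 27 of 38, between 25 and 29 when 1 library was left out. The medians of 24 lists kept their sign in all alternatives run and those of 14 did not: cell cycle, circadian clock, colon identity, detoxification, exocrine pancreas, intestinal stem cell, red blood cell, ribosome biogenesis, smooth muscle, squamous, stress, type I interferon, Wnt target, and Y-linked and X-inactivation genes. Of 57 other genes named, 49 kept their sign in all alternatives.

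The counts of genes called higher, lower and with 1 sign in the 4 (or remaining) conditions, in that order, were 1, 3 and 4. They became 215, 884 and 730 with DESeq2, 8, 15 and 21 with limma and voom, 3, 5 and 8 with no filter, 113, 698 and 481 with the average of 4 differences, and 13, 57 and 66 at a threshold of 0.06. They became 118, 475 and 588 without untreated colon, 49, 221 and 253 without tumours, and 6, 8 and 13 without the 4 libraries that stood apart. Without day 7, as without day 13, 1 gene was lower and 2 had 1 sign. The filter of 1 CPM left 0 higher, and leaving out the 4 libraries with repeated sample numbers gave 2 higher. Leaving out 1 library gave 1 to 83 higher, 2 to 225 lower and 3 to 278 with 1 sign. The largest values came without untreated KO 3; without day 13 WT 2 the 3 counts were 8, 75 and 78, and without tumour WT 2 they were 12, 51 and 59. Those with 1 sign were 24 without day 7 WT 3 or tumour WT 1, 15, 14 and 35 without tumour KO 1, 2 and 3, 9 without day 7 WT 2, 8 without untreated WT 1 or tumour WT 3, and 3 to 6 in the other fits. Genes without overlap numbered 117 without untreated colon, 20 without day 7, 35 without day 13, 155 without tumours, 31 without the 4 libraries apart, 34 without the 4 with repeated numbers, and 12 to 25 with 1 library left out. With a condition left out, no overlap was asked for in the remaining conditions only, and with libraries left out the groups were smaller. Both tend to make the criterion easier to meet, so these counts are not like for like with the main count.

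The number of genes called between the 4 conditions, 2, became 805 with DESeq2, 1 with voom, 5 with 1 CPM and 1 without day 7. Gzmb and Tyrobp both lost the call with voom (adjusted p = 0.228 and 0.212) and without day 7 (0.0760 and 0.0722), where the 1 gene called was another. The number became 0 with the Y-linked term, without untreated colon, day 13 or tumours, and without either set of 4 libraries, and lay between 0 and 261 with 1 library left out (261 without day 13 WT 2, 100 without untreated KO 3). Between tumours and colon DESeq2 gave 22 calls and leaving out 1 library 0 to 2. The 270 colon calls became 1929 with DESeq2, 132 with voom, 72 with no filter, 170 with 1 CPM, 47 with the Y-linked term, 1529 without untreated colon, 2 without day 7, 2 without day 13, 114 without the 4 libraries apart, 10 without the 4 with repeated numbers, and 5 to 940 with 1 library left out. They were 34 or fewer without day 7 KO 1, 2 or 3, day 13 WT 1 or day 13 KO 1, 2 or 3, 51 without day 13 WT 3, 102 without day 7 WT 2, 510 and 931 without untreated KO 2 and 3, and 686 without day 7 WT 3. The share of the colon calls with the same sign in tumours then lay between 57.8% and 100%. Tumour calls were 18 with DESeq2, 1 with no filter and 0 with any 1 library left out. The Axin1 log2 difference lay between -1.68 and -1.63 with 1 library left out.

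Log2 differences that changed sign all belonged to genes with adjusted p far above the threshold: Notum (0.028 with voom, 0.041 without day 13, 0.082 without the 4 libraries apart), Sp5 (0.20 with voom, 0.061 without day 7), Mki67 (-0.015 with voom, -0.23 without day 7, -0.00032 without tumours, -0.090 without the 4 libraries apart), Ctnnb1 (0.0054 with no filter, 0.047 without day 7, 0.030 without day 13), Znrf3 (-0.036 without day 7, -0.0019 without tumours), Nkd1 (0.079 without day 7, 0.039 without the 4 with repeated numbers), Ascl2 (-0.097 without day 13, -0.019 without the 4 libraries apart, -0.059 without the 4 with repeated numbers) and Kyat1 (0.13 without untreated colon). With 1 library left out Ctnnb1 lay between -0.061 and 0.0084 and Notum between -0.34 and 0.020. The cause of these changes was not tested.

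No paired analysis was possible because the labels give no replicate numbers; the sample numbers in the file names pair no KO with a WT library of 1 condition. With 3 libraries a group and whole tissue, differences in genes of rare cells rest on few counts. The edgeR p-values set each difference against the spread between these libraries.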

Other observations

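Some epithelial and other lists were not described above. Epithelial antimicrobial and acute phase genes had 5 of 14 lower at unadjusted p under 0.05, with a median log2 difference of -1.22 in the blocked fit, 0.85 in untreated colon and -2.62 at day 13. Enteroendocrine genes had 4 of 13 lower (median -0.41) and tuft cell genes 2 of 11 (median -0.17). Glycolysis and hypoxia genes had 4 of 17 lower (median -0.13). Apolipoprotein L genes had 3 of 9 lower, with medians of 1.40 in untreated colon and -2.23 in tumours. The blocked fit of edgeR called 0 genes of these 5 lists.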
